A study of Mus musculus with 8 samples.

Results

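Brown adipose tissue burns lipid to produce heat and also secretes proteins that act on its own cells, on vessels and nerves within the depot, and on distant organs. Such secreted products are called batokines. The 10 described here were chosen by name from the 54532 genes of the deposited table, and each matched 1 row: the growth factors Nrg4, Fgf21, Fgf9 and Igf1, the hormone-like proteins Metrnl, Gdf15 and Enho, the chemokine Cxcl14, the cytokine Il6 and the lipid carrier Pltp. RNA was sequenced from 8 mouse samples, 4 labelled wild type (WT) and 4 labelled OGTBKO, in which Ogt was knocked out in brown adipocytes. OGT attaches N-acetylglucosamine to intracellular proteins. Mice of both groups were kept at 23 °C on standard chow and were induced after 8 weeks, and the tissue was collected 2 months later and freed of the white fat around it. The labels spell the inducing agent "gomaxifen". The driver of the recombinase, the strain and the sex of the mice are not stated in the labels or notes read here. The labels do not say that each sample came from a separate mouse, so the spread behind each p-value may be technical.

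Secreted factors of brown fat work through several routes. Neuregulin 4 and the fibroblast growth factors bind receptor tyrosine kinases, FGF21 acting with the coreceptor beta-Klotho and serving as a circulating signal of nutrient stress, and IGF-1 binds a receptor related to the insulin receptor. GDF15 acts on the brainstem through GFRAL, IL-6 signals through IL6RA and gp130 to STAT3, and METRNL has been found to bind the receptor KIT. PLTP moves phospholipids between lipoproteins.

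Of these factors, Metrnl and Fgf21 were higher in every OGTBKO library than in any WT library. Metrnl, a secreted protein that promotes thermogenic gene expression in fat, rose from a mean of 3.59 to 6.94 FPKM (fragments per kilobase of gene, scaled for depth). Fgf21 was listed at 0 in 3 WT libraries and was present at a low level in all 4 OGTBKO libraries. Of all genes with a mean of at least 0.5 FPKM, 11.1% were likewise higher in every OGTBKO library. Among genes below that mean but over 0.25 FPKM, such as Fgf21, the share was 6.59%. For either gene the adjusted p rose above 0.05 in 6 of 8 fits with 1 library left out. Nrg4 had the lower mean in OGTBKO tissue, and Pltp and Enho had the higher one, but these differences did not pass the test and their groups overlapped. Cxcl14, Igf1, Fgf9 and Gdf15 did not pass either, and Il6 was nearly undetected.

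The promoter windows of Fgf21, Metrnl and Gdf15 are printed because the first pair had groups that did not overlap and the third is, like Fgf21, a textbook target of the integrated stress response. A window covers 250 bases before to 50 bases after the RefSeq start site (GRCm38.p6) and is written 5′ to 3′ on the gene's strand. Fgf21 lies on the minus strand, chr7:45615441-45615740, Metrnl on the plus strand, chr11:121702177-121702476, and Gdf15 on the minus strand, chr8:70632407-70632706. Capitals mark matches to 4 motifs searched on both strands: the C/EBP-ATF response element core (TGATGNAA), the cyclic AMP response element (TGACGTCA), the E-box (CACGTG) and the AP-1 site (TGANTCA).
Fgf21: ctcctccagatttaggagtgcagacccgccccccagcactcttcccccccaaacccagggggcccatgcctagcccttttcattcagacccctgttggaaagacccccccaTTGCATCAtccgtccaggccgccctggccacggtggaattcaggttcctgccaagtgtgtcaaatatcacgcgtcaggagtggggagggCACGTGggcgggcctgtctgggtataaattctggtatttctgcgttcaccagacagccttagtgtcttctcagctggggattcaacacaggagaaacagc
Metrnl: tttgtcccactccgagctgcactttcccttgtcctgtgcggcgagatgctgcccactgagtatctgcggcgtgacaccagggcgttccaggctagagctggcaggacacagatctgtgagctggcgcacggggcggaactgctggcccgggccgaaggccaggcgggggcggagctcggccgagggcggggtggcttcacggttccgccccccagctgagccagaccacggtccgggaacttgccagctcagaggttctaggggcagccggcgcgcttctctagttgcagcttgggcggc
Gdf15: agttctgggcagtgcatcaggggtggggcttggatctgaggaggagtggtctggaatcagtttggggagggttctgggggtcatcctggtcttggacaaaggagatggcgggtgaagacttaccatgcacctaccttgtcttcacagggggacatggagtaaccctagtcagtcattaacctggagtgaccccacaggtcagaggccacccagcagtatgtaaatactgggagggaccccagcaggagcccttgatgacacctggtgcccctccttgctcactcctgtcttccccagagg

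The Fgf21 window held a C/EBP-ATF core on the opposite strand, beginning at base -139 from the start site, and an E-box beginning at base -50. Of 32851 mouse windows of 300 bases, 3.97% held the C/EBP-ATF core, 7.15% an E-box, 7.81% an AP-1 site and 1.79% the cyclic AMP element. The printed Metrnl and Gdf15 windows held none of the 4, which says only that these letters are not in these windows. RefSeq windows were found for 9 of the 10 factors, all but Enho, 10 windows in all. Apart from Fgf21, matches were found in the window of a second, downstream Gdf15 start (an E-box) and in the windows of Igf1 and Il6 (an AP-1 site each). The Metrnl start site used by RefSeq lies 883 bases from the start of the gene in the deposited table. The Nrg4 start site lies 43219 bases from the table's 5′ end of that gene.

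Values of each library are described as they were deposited. The libraries held 13393962 to 15897920 reads assigned to genes, and the value of a single read could be recovered from the table, so reads are given beside low values. Ogt measured 22.5 to 33.1 FPKM in WT and 10.7 to 14.5 FPKM in OGTBKO libraries (limma adjusted p = 0.00511). Brown adipocyte markers were abundant, and all 11 listed passed the filter. Their summed level was 3930 to 5861 FPKM in WT and 4312 to 5053 FPKM in OGTBKO libraries. Of the 11, 1 was called higher (Lipe) and 3 lower (Ucp1, Ppargc1a and Prdm16). Ucp1 fell from a mean of 2051 to 1006 FPKM (limma adjusted p = 0.0113), which the sum does not show. The log2 change was positive for 5 of the 11 and negative for 6. The cell type label reads adipocytes, yet the 13 macrophage markers listed summed to 207 to 403 FPKM in WT and 281 to 603 FPKM in OGTBKO libraries, and values are read as those of whole tissue. In such tissue, fewer cells of a type and less RNA per cell cannot be told apart. Skeletal muscle markers, 13 genes, stood high in 2 libraries, OGTBKO 1 (1724 FPKM summed) and WT 1 (591 FPKM), against 20.5 to 64.2 FPKM in the other 6. White adipocyte markers, 8 genes, summed to 55.1 to 129.7 FPKM in WT and 159 to 210 FPKM in OGTBKO libraries without overlap (exact two-sided permutation p = 0.0286, the smallest that 4 against 4 allows). Of these markers 7 passed the filter, with 2 called higher, 0 lower and 5 not called. Neutrophil markers, 8 genes, summed to 4.04 to 40.4 FPKM in WT and 3.29 to 7.42 FPKM in OGTBKO libraries.

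**Figure D1:**
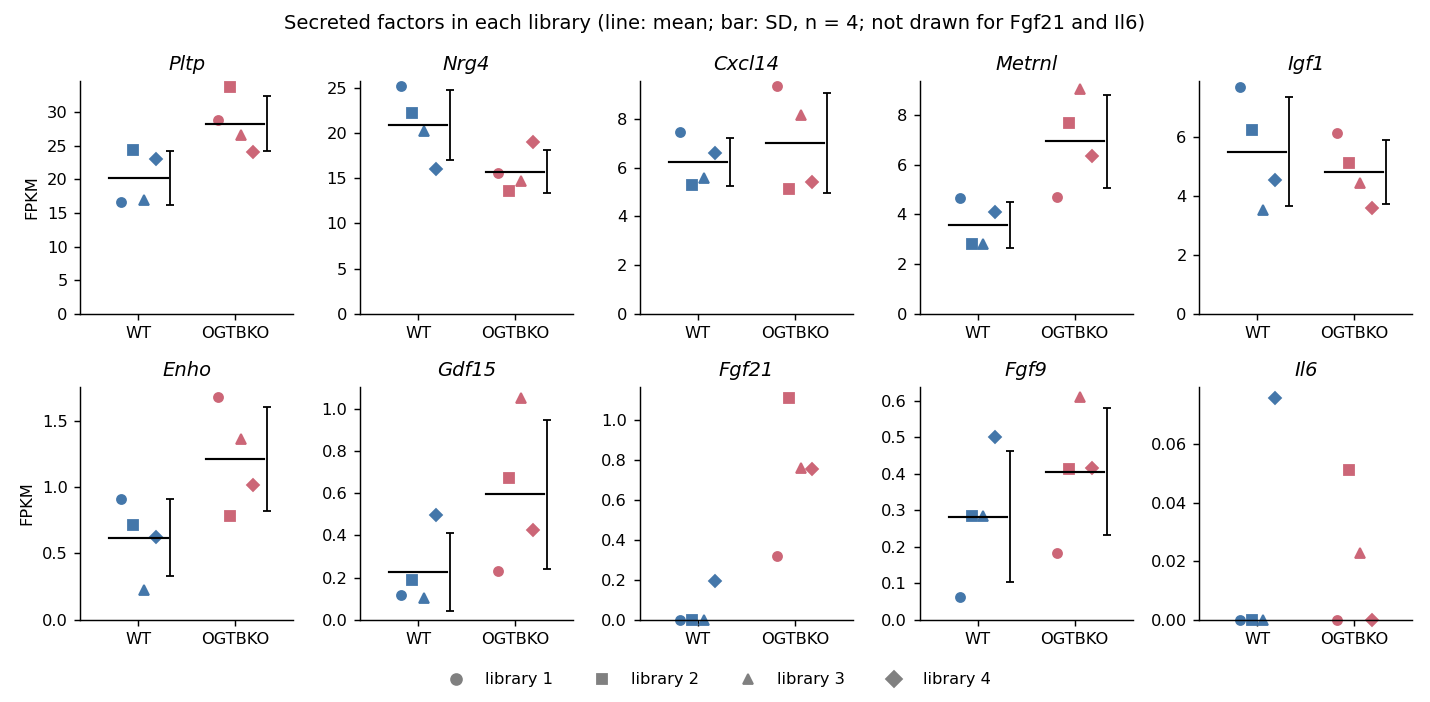
Level of each of the 10 secreted factors in FPKM (vertical axis, starting at 0 in each panel) in the 4 WT libraries (blue) and the 4 OGTBKO libraries (red), with the shape of the point giving the library number, a line at the mean and a bar of 1 SD on either side where drawn. The 4 OGTBKO points lie above all WT points for Metrnl (4.68 against 4.64 FPKM at the closest) and for Fgf21 (0.320 against 0.193 FPKM), and the groups overlap in the other 8 panels.

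By level per length, Pltp and Nrg4 stood highest, at means over the 8 libraries of 24.3 and 18.3 FPKM. Pltp exceeded Nrg4 in 6 of 8 libraries, 2 of 4 WT and 4 of 4 OGTBKO, and a difference in this order between the groups was not tested. Cxcl14 (6.62 FPKM), Metrnl (5.26 FPKM) and Igf1 (5.16 FPKM) came next and did not keep an order: Cxcl14 exceeded Metrnl in 4 of 4 WT libraries and in 1 of 4 OGTBKO libraries, and Metrnl exceeded Igf1 in 0 WT and 3 OGTBKO libraries. Enho followed at 0.914 FPKM, below Igf1 in all 8. Gdf15 (0.410 FPKM), Fgf21 (0.392 FPKM) and Fgf9 (0.345 FPKM) were close to each other and exchanged places between libraries, and Il6 was the lowest of all. In the WT group Nrg4 lay at the 88.7th percentile of the 13171 genes tested and Metrnl at the 49.7th, and in the OGTBKO group they lay at the 85.0th and the 68.4th.

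The test covered the 13171 genes with a mean of at least 0.5 FPKM, and 6 of the 10 factors passed that filter. Of these 6, 1 was called higher (Metrnl) and 0 lower, at an adjusted p under 0.05. The background is 15.6% of all genes tested called in either direction, 8.11% higher and 7.46% lower, so the share of factors called is close to that of genes at large and is not a result about the set. The median log2 change of the 6 was 0.31, against 0.00 over all genes tested. Over all genes 1068 were higher and 982 lower. With the library total as the denominator these counts were 987 and 250, and the adjusted p of Metrnl was then 0.0541.

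**Figure D2:**
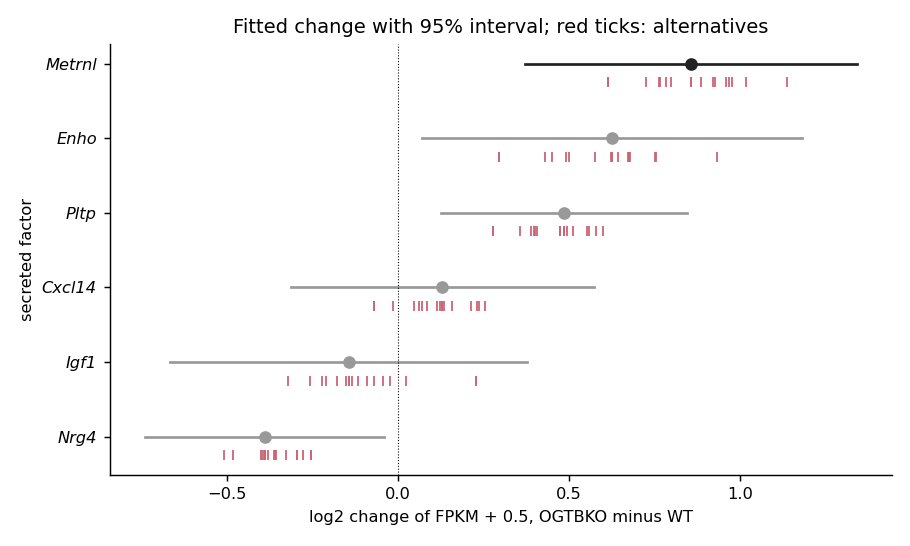
Fitted log2 change of FPKM + 0.5, OGTBKO minus WT (horizontal axis), for the 6 secreted factors tested, with points for the estimate, bars for its 95% interval, black for a called gene and grey for the rest, and red ticks for the values under the alternatives tried. Metrnl, at 0.86, is the only factor called, and the ticks of Cxcl14 and Igf1 lie on both sides of 0.

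Metrnl (ENSMUSG00000039208) lies on chromosome 11, 121701544 to 121716306, plus strand, with 4 exons in its coding transcripts. It measured 4.64, 2.82, 2.80 and 4.09 FPKM in WT 1 to 4 and 4.68, 7.67, 9.05 and 6.34 FPKM in OGTBKO 1 to 4. OGTBKO 1 was barely above WT 1, and these 2 are the libraries with the most muscle marker signal, whose part in the value was not tested. Group means were 3.59 ± 0.925 and 6.94 ± 1.86 FPKM (SD, n = 4), and the fitted log2 change was 0.86 ± 0.22 (SE, 95% interval 0.37 to 1.34, limma adjusted p = 0.0304). Of all genes tested, 22.5% had groups that did not overlap, and 11.1% of all genes tested had them with OGTBKO higher. Without both libraries numbered 1 the change was larger, at a log2 of 1.14 (adjusted p = 0.0152). Leaving out 1 library ended the call in 6 of 8 cases: without WT 2 (adjusted p = 0.0849), WT 3 (0.0566), WT 4 (0.0504), OGTBKO 2 (0.0735), OGTBKO 3 (0.0835) or OGTBKO 4 (0.0646). It also ended on GC- and length-corrected values, from which each library's trend on the GC content and length of genes had been taken out, where the log2 change was 0.61 (adjusted p = 0.0933). The direction was the same in all 19 alternatives, with log2 changes from 0.61 to 1.14.

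Fgf21 (ENSMUSG00000030827, chromosome 7, 45613886 to 45615490, minus strand, 3 exons), an endocrine growth factor that enhances thermogenesis and glucose use, was below the filter. It was at 0 in WT 1, WT 2 and WT 3 and at 0.193 FPKM in WT 4, which came from 3 reads. In OGTBKO 1 to 4 it measured 0.320, 1.11, 0.760 and 0.755 FPKM, from 5, 17, 13 and 10 reads. Every OGTBKO library was thus above every WT library (exact two-sided permutation p = 0.0286), with OGTBKO 1 the lowest of its group. Pooled over libraries, 45 reads stood against 3, a ratio of 12.8 after scaling for depth with a 95% interval of 4.12 to 64.6 that covers counting error only. In the limma fit with no filter on low values, the log2 change on the FPKM + 0.5 scale was 1.15 ± 0.22 (SE, adjusted p = 0.0288). In that fit 4.58% of 26825 genes were called. Among genes under the filter with a mean over 0.25 FPKM, the groups did not overlap in 10.6%, and in 6.59% with OGTBKO higher.

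The Fgf21 call in the fit with no filter also depended on single libraries. It ended without WT 1 (adjusted p = 0.0565), WT 2 (0.0907), WT 3 (0.0545), OGTBKO 2 (0.0545), OGTBKO 3 (0.0823) or OGTBKO 4 (0.0728). It held without WT 4 (0.0461), without OGTBKO 1 (0.0193), without both libraries numbered 1 (0.0339), on GC- and length-corrected values (0.0417) and with the library total as denominator (0.0402). The fitted size follows the pseudocount: the log2 change was 2.58 with a pseudocount of 0.1 and 0.71 with 1.

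**Figure D3:**
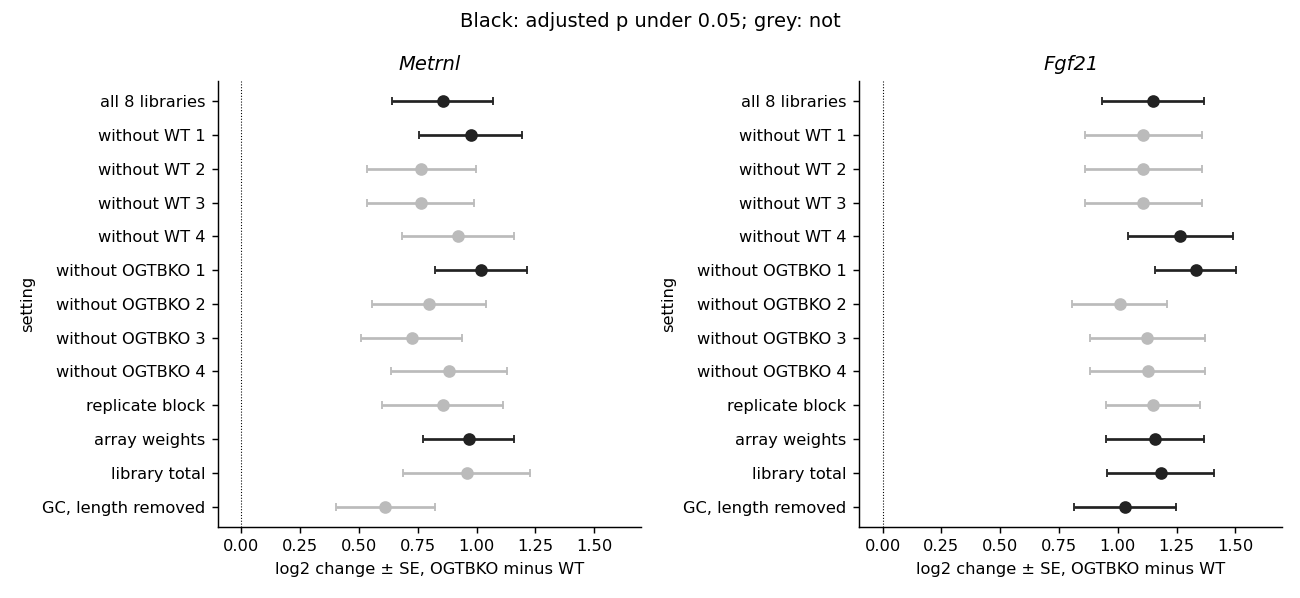
Log2 change, OGTBKO minus WT, with bars of 1 SE on either side (horizontal axis), for Metrnl in the fit with the filter and for Fgf21 in the fit with no filter, under each setting named on the vertical axis, black where the adjusted p was under 0.05 and grey where it was not. All points lie to the right of 0, and leaving out a single library turned the point grey in 6 of 8 cases for either gene.

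Gdf15 (ENSMUSG00000038508, chromosome 8, 70629393 to 70632456, minus strand), a hormone of cell stress that lowers food intake, was also below the filter. It measured 0.117, 0.189, 0.102 and 0.495 FPKM in WT 1 to 4, from 3, 5, 2 and 15 reads. In OGTBKO 1 to 4 it measured 0.230, 0.671, 1.05 and 0.427 FPKM, from 7, 20, 35 and 11 reads. WT 4 lay above OGTBKO 1 and OGTBKO 4, so the groups overlapped, and the difference did not pass the test (exact two-sided permutation p = 0.114). Counted over libraries, 73 reads stood against 25, a ratio of 2.50 with a 95% interval for counting error of 1.57 to 4.11, which leaves out the spread between libraries. In the fit with no filter the log2 change was 0.57 ± 0.26 (SE, adjusted p = 0.277). WT 4 was thus the WT library with the most Gdf15 and the only one with Fgf21 reads.

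Fgf9 (ENSMUSG00000021974, chromosome 14, 58070547 to 58112720, plus strand), a paracrine growth factor, ranged from 0.0621 to 0.50 FPKM in WT and from 0.183 to 0.610 FPKM in OGTBKO libraries. These values came from 75 and 123 reads in all, and the exact two-sided permutation p was 0.314. The lowest library of each group was the one numbered 1, and the groups overlapped over most of their range. Il6 (ENSMUSG00000025746, chromosome 5, 30013114 to 30019981, plus strand) had 3 reads in WT 4, 2 in OGTBKO 2, 1 in OGTBKO 3 and 0 in the other 5 libraries. A count of 0 allows up to 3 reads, so a difference in Il6 was not detectable at this depth.

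Nrg4 (ENSMUSG00000032311), the neuregulin best known as a product of brown fat that acts on liver and nerve, lies on chromosome 9, 55220222 to 55326844, minus strand. It measured 25.2, 22.2, 20.2 and 16.1 FPKM in WT 1 to 4 and 15.6, 13.6, 14.7 and 19.1 FPKM in OGTBKO 1 to 4. OGTBKO 1, 2 and 3 lay below every WT library, while OGTBKO 4 lay above WT 4. Group means were 20.9 ± 3.84 and 15.8 ± 2.35 FPKM (SD, n = 4), and the fitted log2 change was -0.39 ± 0.15 (SE, 95% interval -0.74 to -0.04, adjusted p = 0.116). It was not called in any of the 19 alternatives, in which the log2 change ranged from -0.51 to -0.25. In GENCODE M21 its exons share 368 bases with those of Fbxo22 on the opposite strand (16.0 ± 4.89 and 13.4 ± 1.6 FPKM, SD, n = 4 each, adjusted p = 0.458), and since the strand setting of the counting is not given, reads from that stretch cannot be told apart.

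Igf1 (ENSMUSG00000020053, chromosome 10, 87858265 to 87937042, plus strand), the insulin-like growth factor made in fat largely by macrophages and stromal cells, measured 7.70, 6.24, 3.51 and 4.55 FPKM in WT 1 to 4 and 6.14, 5.12, 4.44 and 3.58 FPKM in OGTBKO 1 to 4. WT 1 and WT 2 lay above every OGTBKO library and WT 3 lay below all of them, so the OGTBKO values fell within the WT range. The library numbered 1 was the highest of each group. The log2 change was -0.14 ± 0.23 (SE, 95% interval -0.67 to 0.38, adjusted p = 0.710). Its sign turned on GC- and length-corrected values (0.23) and without WT 1 (0.02), so no direction can be given.

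Pltp (ENSMUSG00000017754, chromosome 2, 164839518 to 164857711, minus strand) measured 16.7, 24.4, 16.9 and 23.1 FPKM in WT 1 to 4 and 28.9, 33.8, 26.6 and 24.1 FPKM in OGTBKO 1 to 4. WT 2, at 24.4 FPKM, lay just above OGTBKO 4, and the other 3 OGTBKO libraries were above all WT libraries. Group means were 20.3 ± 4.05 and 28.3 ± 4.12 FPKM (SD, n = 4), and the fitted log2 change was 0.48 ± 0.16 (SE, 95% interval 0.12 to 0.84, adjusted p = 0.0694). It was positive in all 19 alternatives and called in 0 of them, with log2 changes from 0.28 to 0.60. Its exons share 495 bases with those of Ctsa on the opposite strand (13.4 ± 1.30 and 12.9 ± 1.43 FPKM, SD, n = 4 each, adjusted p = 0.766), so that stretch carries the same limit as in Nrg4.

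Enho (ENSMUSG00000028445, chromosome 4, 41638144 to 41640324, minus strand) encodes adropin, a small secreted peptide linked to energy balance. It measured 0.909, 0.716, 0.223 and 0.627 FPKM in WT 1 to 4, from 16, 13, 3 and 13 reads, and 1.68, 0.783, 1.36 and 1.02 FPKM in OGTBKO 1 to 4, from 35, 16, 31 and 18 reads. OGTBKO 2 lay below WT 1, and the other 3 OGTBKO libraries lay above all WT libraries. The log2 change was 0.62 ± 0.25 (SE, 95% interval 0.07 to 1.18, adjusted p = 0.114), and 0.30 on GC- and length-corrected values. Enho has the highest GC content of the 10 (65.6%), and the level of GC-rich genes was higher in all OGTBKO libraries than in any WT library, with slopes on GC content of 0.0045 to 0.0211 against -0.0143 to -0.0076 log2 units per percentage point.

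Cxcl14 (ENSMUSG00000021508, chromosome 13, 56288643 to 56296551, minus strand), a chemokine that brown fat releases and that recruits macrophages, measured 7.46, 5.28, 5.58 and 6.60 FPKM in WT 1 to 4 and 9.33, 5.13, 8.16 and 5.43 FPKM in OGTBKO 1 to 4. OGTBKO 1 and OGTBKO 3 were above all WT libraries and OGTBKO 2 was below all of them, so the libraries of this group were spread around the WT range. The log2 change was 0.13 ± 0.20 (SE, 95% interval -0.31 to 0.57, adjusted p = 0.693). Its sign turned without OGTBKO 1 (-0.01) and on GC- and length-corrected values (-0.07).

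Within the groups, the highest and lowest libraries were not the same for all factors. Of the 9 factors other than Il6, OGTBKO 1 was the highest of its group for 3 (Cxcl14, Enho and Igf1) and the lowest for 4 (Fgf21, Fgf9, Metrnl and Gdf15). OGTBKO 3 was the highest for 3 (Fgf9, Metrnl and Gdf15) and the lowest for 0. Among WT libraries, WT 1 was the highest for 5 (Nrg4, Metrnl, Cxcl14, Enho and Igf1) and WT 3 the lowest for 4 (Metrnl, Gdf15, Enho and Igf1). WT 4 was the highest for 3 (Fgf21, Fgf9 and Gdf15).

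Receptors of these factors were measured in the same tissue, since several of the factors act locally. Of 15 receptors and coreceptors listed 13 passed the filter. Among these, 1 was called higher, 1 lower and 11 not called, at a median log2 change of -0.15. The shares over all genes tested were 8.11% higher and 7.46% lower. Kit, which binds stem cell factor and METRNL and is found on endothelial and mast cells, rose from 1.90 ± 0.502 to 3.90 ± 1.10 FPKM (log2 0.87 ± 0.22, adjusted p = 0.0309). It measured 2.08, 2.14, 2.22 and 1.15 FPKM in WT 1 to 4 and 2.61, 3.51, 5.21 and 4.26 FPKM in OGTBKO 1 to 4, without overlap. The Kit call ended without WT 2, WT 4, OGTBKO 2, OGTBKO 3 or OGTBKO 4 (adjusted p from 0.060 to 0.0847) and held on GC- and length-corrected values (adjusted p = 0.0302). The mast cell genes Cpa3 (log2 -0.38), Cma1 (log2 -0.29), Mcpt4 (log2 -0.05) and Tpsb2 (log2 -0.10), chosen after values were seen, did not pass the test. The 10 endothelial markers summed to 126 to 166 FPKM in WT and 156 to 167 FPKM in OGTBKO libraries. Among them 1 was called higher, Cdh5 (37.3 ± 3.55 and 47.7 ± 1.39 FPKM, adjusted p = 0.0413, named after its value was seen), 0 were called lower, and their median log2 change was -0.01. The part of endothelial cells in the Kit values was not tested.

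**Figure D4:**
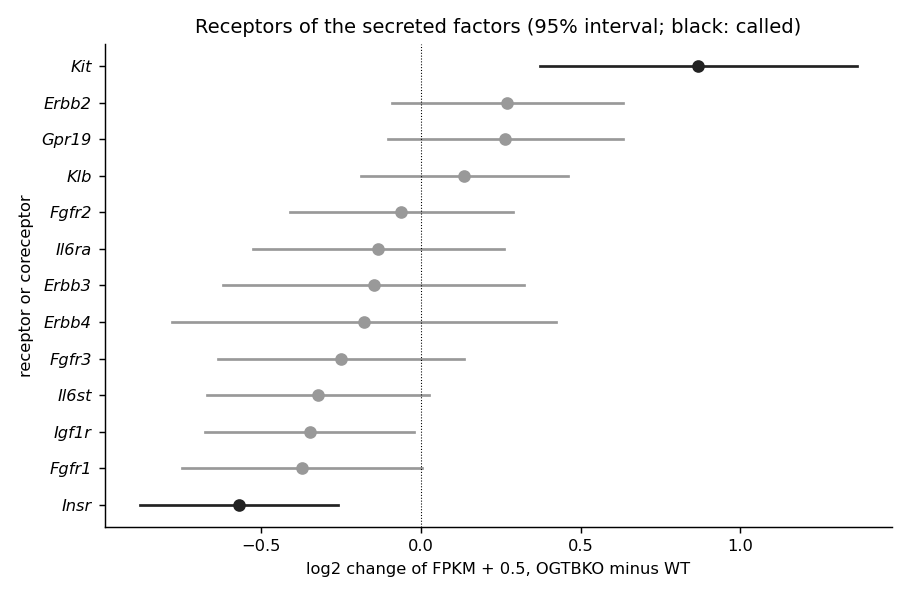
Fitted log2 change of FPKM + 0.5, OGTBKO minus WT (horizontal axis), of the 13 receptors and coreceptors tested (vertical axis), with 95% intervals, black where called and grey elsewhere. Kit lies at 0.87 and Insr at -0.57, and the other 11 were not called.

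The insulin receptor Insr, a partner of the IGF-1 receptor, fell from 13.8 ± 2.03 to 9.15 ± 1.35 FPKM (log2 -0.57 ± 0.14, adjusted p = 0.0274). The Insr call ended without WT 2, WT 4, OGTBKO 2, OGTBKO 3 or OGTBKO 4 (adjusted p from 0.0626 to 0.0807) and on GC- and length-corrected values (adjusted p = 0.125). Igf1r itself measured 1.35 ± 0.242 and 0.947 ± 0.137 FPKM (log2 -0.35, adjusted p = 0.131). The coreceptor of FGF21, Klb, measured 14.5 ± 0.919 and 16.3 ± 3.49 FPKM (log2 0.14, 95% interval -0.19 to 0.46), and its partner Fgfr1 8.78 ± 1.15 and 6.76 ± 1.62 FPKM (log2 -0.37, adjusted p = 0.157). Fgfr2 (log2 -0.06) and Fgfr3 (log2 -0.25) were low, at means of 0.427 to 0.720 FPKM, and Fgfr2 had no stable sign (0.01 with the library total, 0.02 on GC- and length-corrected values).

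The receptors of neuregulins were low in the tissue as a whole. Erbb3 had means of 0.698 and 0.553 FPKM, Erbb4 1.16 and 0.895 FPKM, and Erbb2 0.688 and 0.942 FPKM, none of them called, and the log2 changes of Erbb3 and Erbb4 turned from negative to 0.04 without WT 3. Schwann cell and nerve markers, among the cells that use Erbb3, summed to 41.2 to 59.9 FPKM in WT and 33.8 to 46.1 FPKM in OGTBKO libraries, and their part in the Erbb3 values was not tested. The IL-6 receptor chain Il6ra (log2 -0.13) and the shared chain Il6st (log2 -0.32, adjusted p = 0.18) were not called either, though Il6st passed without both libraries numbered 1 (log2 -0.53, adjusted p = 0.0314) and with array weights (adjusted p = 0.0377). Gpr19, proposed as a receptor of adropin, had means of 0.735 and 0.978 FPKM (log2 0.26, adjusted p = 0.292). Gfral was listed at 0 in all 8 libraries and Ret, its signalling partner, had means of 0.516 and 0.431 FPKM, under the filter.

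Other ligands of the same families were listed too. Of 10 other ligands of the EGF receptor family 1 passed the filter, betacellulin (Btc), and it fell from 3.97 ± 0.627 to 1.19 ± 0.376 FPKM (log2 -1.42, adjusted p = 0.00383), a call that held in all 19 alternatives. Of 14 other genes of the FGF family, among them Fgf11, Fgf12, Fgf13 and Fgf14, whose products stay inside the cell, 5 passed the filter and 0 were called in limma, and of these Fgf2 had the smallest p (log2 -0.32, adjusted p = 0.231). Of 11 other CXC chemokines 5 were tested and 0 called. Cxcl13, which attracts B cells, had the smallest p, at 15.0 ± 10.7 and 2.44 ± 1.93 FPKM (SD, n = 4 each, log2 -2.22, adjusted p = 0.0543). Of 19 genes of IGF binding and signalling 12 were tested and 0 called, with Irs2 at a log2 of -1.02 (adjusted p = 0.117).

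Il6 itself could not be compared, but other genes of the IL-6 family and its signalling could. Of 15 listed 10 were tested, with 3 called lower, 1 called higher and the remaining 6 not called, at a median log2 change of -0.11. Over all genes tested, 7.46% were called lower and 8.11% higher. The cytokine cardiotrophin 1 (Ctf1) fell from 2.80 ± 0.454 to 1.43 ± 0.161 FPKM (log2 -0.76 ± 0.13, adjusted p = 0.00947), a call that held in all 19 alternatives. The receptor chain Lifr fell by 0.54 (log2, adjusted p = 0.0110, and 0.0535 on GC- and length-corrected values). The transcription factor Stat3 fell by 0.60 (adjusted p = 0.0223), a call that ended without WT 2, OGTBKO 2 or OGTBKO 3 (adjusted p from 0.0537 to 0.0669). Cebpb, a bZIP factor that IL-6 signalling and stress both induce, rose from 66.5 ± 19.7 to 113 ± 9.66 FPKM (log2 0.82, adjusted p = 0.0345), and its call ended without WT 2 or any of the 4 OGTBKO libraries (adjusted p from 0.0574 to 0.0927).

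Among genes upstream of Fgf21 and Gdf15, 15 transcription regulators were all tested. Of these, 4 were called lower, 0 higher and 11 not called, at a median log2 change of -0.11. The shares over all genes tested were 7.46% lower and 8.11% higher. Ppargc1a, which encodes a coactivator of mitochondrial and thermogenic genes, had group means of 13.6 ± 2.19 and 7.17 ± 0.878 FPKM (log2 change -0.87, adjusted p = 0.00628), a call that held in all 19 alternatives. Atf2, a bZIP factor that cyclic AMP signalling activates in brown fat, fell by 0.54 (log2, adjusted p = 0.0166), a call that ended without WT 2 or OGTBKO 3 (adjusted p = 0.0536 to 0.0538). The thyroid hormone receptor Thrb fell by 0.74 (adjusted p = 0.0320), a call that ended without WT 2, WT 4, OGTBKO 2, OGTBKO 3 or OGTBKO 4 (adjusted p from 0.0531 to 0.0921). Creb1 fell by 0.41 (adjusted p = 0.0363), but its log2 change was -0.02 on GC- and length-corrected values, and the call ended in 6 of 8 fits with a library left out. Atf4, named after its values were seen because its product binds the element printed for Fgf21, had a log2 change of 0.63 (adjusted p = 0.130).

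Of 15 targets of the integrated stress response, the program that slows translation and induces amino acid synthesis, 13 were tested. Among these, 3 were called higher, 0 lower and 10 not called (median log2 change 0.30). The shares over all genes tested were 8.11% higher and 7.46% lower. The stress protein Nupr1 rose from 1.71 ± 0.495 to 3.65 ± 0.309 FPKM (log2 0.93 ± 0.16, adjusted p = 0.00915), and that call held in all 19 alternatives. The mitochondrial folate enzyme Mthfd2 rose by 0.80 (log2, adjusted p = 0.0259) and the serine synthesis enzyme Psat1 by 0.74 (adjusted p = 0.0276). The Mthfd2 call ended without WT 2, OGTBKO 2, OGTBKO 3 or OGTBKO 4 (adjusted p from 0.0531 to 0.0723), and the Psat1 call without these or WT 4 (adjusted p from 0.0628 to 0.0804). Shmt2, of the same folate pathway, had a log2 change of -0.40 (adjusted p = 0.0539).

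**Figure D5:**
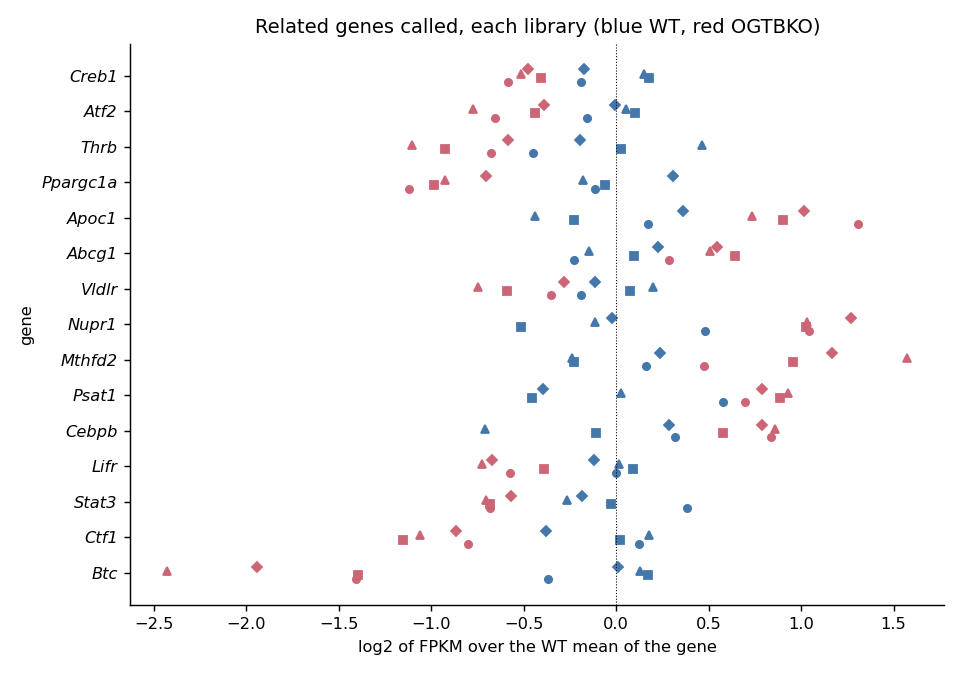
Each library's FPKM over the WT mean of the gene, on a log2 scale (horizontal axis), for the genes called in the lists on EGF family ligands, IL-6 signalling, stress targets, lipoprotein transfer and regulators of Fgf21 and Gdf15 (vertical axis), WT in blue and OGTBKO in red, with circles, squares, triangles and diamonds for libraries 1 to 4. Of all genes tested, called or not, 22.5% had groups that did not overlap. The groups do not overlap for any gene drawn, but only called genes were drawn, so this adds no support. Btc, Ctf1 and Ppargc1a are among those lower in all 4 OGTBKO libraries than in any WT library, and Nupr1 and Apoc1 among those higher.

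Around Pltp, 15 genes of lipoprotein and phospholipid transfer were listed and 13 tested. Of these, 2 were called higher, 1 lower and 10 not called (median log2 change 0.01). The shares over all genes tested were 8.11% higher and 7.46% lower. The apolipoprotein Apoc1 rose from 46.9 ± 11.7 to 94.1 ± 16.1 FPKM (log2 1.02 ± 0.19, adjusted p = 0.0124), a call that held in all 19 alternatives. The sterol exporter Abcg1 rose by 0.45 (log2, adjusted p = 0.0366), a call that held without WT 4 and without OGTBKO 1 and ended without each of the other 6 libraries (adjusted p from 0.0623 to 0.0938). The lipoprotein receptor Vldlr fell by 0.48 (adjusted p = 0.0438), and its call ended in 7 of 8 fits with a library left out, all but that without WT 1 (adjusted p from 0.0535 to 0.118). Of the 13 macrophage markers tested, 0 were called higher and 1 was called lower, Cd163 (log2 -1.06, adjusted p = 0.0413, named after its value was seen). The log2 change was positive for 8 of these markers and negative for 5, with a median of 0.05. The part of macrophages in the Pltp and Apoc1 values was not tested.

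Among 32 other secreted products of fat, 25 were tested, with 5 called higher, 0 lower and 20 not called (median log2 change 0.26). Over all genes tested, 8.11% were called higher and 7.46% lower. This list was chosen with earlier results of these data known, so its count is not a result about secreted products. The 4 of the list with the smallest p were Bmp8b (log2 3.14), Tgfb1 (log2 1.02), Angptl8 and Rbp4 (log2 0.52). The fifth was Lep, named only to complete the count. Angptl8, an inhibitor of lipoprotein lipase in complex with its relatives, measured 6.22 to 9.67 FPKM in WT and 17.1 to 45.1 FPKM in OGTBKO libraries (log2 change 1.79 ± 0.29, SE, adjusted p = 0.00872). Rbp4, the carrier of retinol in blood, had group means of 20.4 ± 2.45 and 29.5 ± 1.45 FPKM and was called higher (adjusted p = 0.0161). The Rbp4 call ended without OGTBKO 3 (0.0516) and on corrected values (0.107). The summed level of white adipocyte markers was higher in the same libraries, as given above, though only 2 of the 7 tested were called. Lep and Retn stand in both lists, and the part of white adipocytes in these values was not tested.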

How the data were processed

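The authors deposited 1 table of FPKM values for 54532 genes in 8 libraries. Alignment with HISAT2 2.0.5 and counting with featureCounts 1.5.0-p3 on mm10 are named in the submitters' processing notes, and the strand setting is not. After multiplication by gene length, deposited values were whole multiples of 1 read in 100% of cases (tolerance 0.001). Their denominators were the geometric mean total scaled by median-of-ratios size factors, 0.790 to 1.13 times each library's total. No 2 libraries of a group agreed within counting noise (chi-square per degree of freedom 16.0 to 99.6). All 8 carry 1 batch label.

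Values were analysed as log2(FPKM + 0.5) for the 13171 genes with a mean of at least 0.5 FPKM, with limma 3.58.1 in R 4.3.3 (mean-variance trend, two-sided, no covariates) and Benjamini-Hochberg adjustment over all genes. A call is an adjusted p under 0.05. Single values were compared by an exact permutation test over the 70 assignments. The fit was checked on simulated reads. The factors and the gene lists were chosen with earlier results of these data known. Named were all 10 factors, all receptors listed, Ogt, and up to 4 genes with the smallest p of each other list. GC content came from the longest GENCODE M21 transcript, and 98.3% of genes had the same coordinates there. Promoter sequences are from RefSeq (GRCm38.p6).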

Additional observations from a re-analysis of the deposited data

Results flagged for a closer look

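In 2 of 20 groups of 4 values checked (10 factors in each genotype), 1 library stood apart from the other 3. Chance flags about 1 in 20 groups, a rate that does not apply here, since any value above 0 beside 3 values of 0 is marked. Fgf21 measured 0.193 FPKM in WT 4, from 3 reads, and 0 in the other 3 WT libraries. Il6 measured 0.0756 FPKM in WT 4, from 3 reads, and 0 in the other 3 WT libraries.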

How the results depend on the processing

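Of the factors tested, 1 was called, and this count was 0 with the replicate block, with the library total as denominator, with GC- and length-corrected values and with that correction and the replicate block together. It was 2 (Metrnl and Fgf21) with a filter at a mean of 0.25 FPKM, an alternative chosen after seeing the data, as were the fits without both libraries numbered 1 and those with no filter for factors under it. Fgf21 passed the filter at 0.25 FPKM only through its OGTBKO libraries (means of 0.0482 FPKM in WT and 0.736 FPKM in OGTBKO). Its call under that filter therefore adds no support. With 1 library left out the count of factors called ranged from 0 to 1. Over all genes the count of 2050 went to 1229 with no filter, 888 with the replicate block, 3516 with array weights, 1237 with the library total, 1412 with the correction, 547 with the correction and the replicate block, and 692 to 2122 with 1 library left out. The 692 came without OGTBKO 3. Leaving out WT 2 gave 784, OGTBKO 4 gave 945, OGTBKO 2 gave 1175 and WT 4 gave 1195. Whether the replicate numbers pair the samples cannot be told from 4 pairs. Deviations of same-numbered libraries correlated at 0.22, 0.17, 0.014 and -0.0070, and 2 of 4 WT libraries correlated best with their own number. The block ended the calls of Metrnl (adjusted p = 0.0904), Fgf21 (0.0903, no filter), Kit (0.0632), Insr (0.0658), Cebpb (0.0627), Stat3 (0.0572), Creb1, Thrb, Mthfd2, Psat1, Abcg1 and Vldlr (0.0631 to 0.121). Together with the correction it also ended those of Ogt (0.0501), Angptl8 (0.0505), Lifr, Atf2 and Rbp4.

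Among the called genes named, the calls of Metrnl, Kit, Insr, Cebpb, Creb1, Thrb, Mthfd2, Psat1, Abcg1 and Vldlr ended with no filter, those of Metrnl, Insr, Lifr, Stat3, Cebpb, Creb1, Atf2, Abcg1 and Vldlr with the library total, and those of Metrnl, Insr, Lifr, Stat3, Cebpb, Creb1, Atf2, Thrb, Abcg1, Vldlr and Rbp4 on corrected values. Signs turned for 5 genes, none of them called. On corrected values, with or without the block, the log2 change was -0.070 for Cxcl14, 0.23 for Igf1, 0.16 for Erbb4 and 0.021 for Fgfr2, and with the library total it was 0.0066 for Fgfr2. With 1 library left out it ranged from -0.014 (without OGTBKO 1) to 0.25 for Cxcl14, from -0.32 to 0.023 (without WT 1) for Igf1, from -0.25 to 0.036 (without WT 3) for Erbb3, from -0.40 to 0.041 (without WT 3) for Erbb4 and from -0.12 to 0.0049 (without OGTBKO 4) for Fgfr2. The cause was not tested. Of 785 refitted values of 42 genes, 643 kept their direction and side of the threshold, 126 kept the direction but lost the call and 2 gained it. Gdf15, Fgf9, Fgf21 and Il6 rest on at most 51 reads in a library.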
